A study of Mus musculus with 6 samples.

Results

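Voltage-gated and potassium channel subunits were followed in the whole brain of mice 48 hours after an injection of bacterial lipopolysaccharide (LPS). The members were all genes of the array annotation with symbols that start with Kcn, a letter and a number, that have the form Scn, a number and a or b, or that start with Cacna, Cacnb or Cacng. Of 19938 genes that had a transcript cluster (a group of probes summarised as 1 value) naming no other gene, 112 were members, and where a gene had several such clusters the brightest stood for it. Some other genes with such symbols were not analysed here. One member, Kcnd3os, is an antisense transcript of the potassium channel gene Kcnd3 and was included only because its symbol matched.

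The mice were C57BL/6 males, bought at an age of 7 to 8 weeks and a weight of 20 to 25 g, and were given 1 week to acclimatise. The LPS group (n = 3) received 4 mg/kg LPS of Escherichia coli by intraperitoneal injection, and the vehicle group (n = 3) received phosphate-buffered saline (PBS). RNA of each brain was hybridised to 1 Affymetrix Mouse Gene 1.0 ST array, so that each array stands for 1 mouse and neither group carries a genetic change. The comparison asks how gene expression in the brain differs between mice with and without systemic inflammation. Whole brain mixes all regions and cell types, and fewer cells of a type and less RNA per cell cannot be told apart.

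Ion channels of these families set the electrical behaviour of cells. Sodium channels open to start the action potential, potassium channels repolarise the membrane and hold its resting level, and calcium channels couple depolarisation to transmitter release and gene expression. Pore-forming alpha subunits carry the current, whereas auxiliary subunits set its trafficking and gating. Most of the family belongs to neurons, but some potassium channels are known mainly from glia, vessels, choroid plexus or immune cells.

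The 6 arrays differed in more than treatment. A principal component analysis set LPS replicates 1 and 2 away from the remaining 4 (first-component scores of 32.9 and 48.3, against -25.2 to -15.2, with 54.5% of the variance), and their median log2 value over all 35556 clusters was 7.09 and 7.11 against 6.96 to 6.98. Over the channel genes these 2 arrays were as alike as the PBS arrays were: the median absolute difference between them was 0.08 on the log2 scale, against 0.08 to 0.11 between PBS arrays and 0.13 and 0.16 between them and LPS replicate 3. Markers of the tissue were present, with all 10 neuronal markers above the background level and a median log2 fold change (LPS minus PBS) of -0.01 over them, and 4 of 5 endothelial markers (median 0.98) and 1 of 7 microglial and macrophage markers (Itgam, median of the list 0.30) passed the test. Background was taken as 6.52 on the log2 scale, the 95th percentile of the mean levels of 1194 olfactory and vomeronasal receptor genes. The mean level of 85 channel genes was above it and that of 27 was not.

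None of the 112 channel genes was higher or lower in LPS-treated mice at an adjusted p under 0.05 with limma, beside 0.714% of all clusters. The smallest adjusted p was 0.138 (limma), for Kcne1l. The methods' t-test also gave 0 members after adjustment, beside 0.0141% of all clusters, and 10 (8.93%) before, beside 11.9%. At an unadjusted p under 0.05, limma gave 11 members (9.82%), 5 of them higher and 6 lower, where 14.3% of all clusters met that limit, 7.69% higher and 6.58% lower. In 15 members (13.4%) all 3 LPS arrays lay on one side of all 3 PBS arrays, 7 above and 8 below, where 20% of all clusters did so, 9.73% above and 10.3% below. Both member counts were thus under the background, and none of these genes is called changed.

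The differences were also small in size. Over the 112 members the median log2 fold change was 0.00, with 57 positive and 55 negative values between -0.58 and 0.48, and the median absolute value was 0.06, against 0.10 over all genes named alone. The 95% confidence interval lay wholly within a 1.5-fold change either way for 98 members (87.5%), beside 86.6% of all genes named alone, and within a 2-fold change for 111. The exception to the wider limit was Kcnj8. The median deviation of the members from their PBS means was -0.01, 0.02 and 0.02 on LPS replicates 1, 2 and 3, and between -0.01 and 0.01 on the PBS arrays. The zero point depends on the scaling of the arrays: centring each array on its median moved each log2 fold change by -0.09. At an unadjusted p under 0.05 there were then 1 higher and 10 lower members, 7 of them among the 11 above (9.82%, beside 16.5% of all clusters). After quantile normalization there were 2 higher and 9 lower, 8 of them among the 11 (9.82% beside 15.6%). For groups that did not overlap the split after centring was 3 above and 14 below, 9 of them among the 15 (15.2%, beside 22.5% of all clusters). After quantile normalization it was 5 above and 10 below, 12 of them among the 15 (13.4% beside 21.7%).

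**Figure D1:**
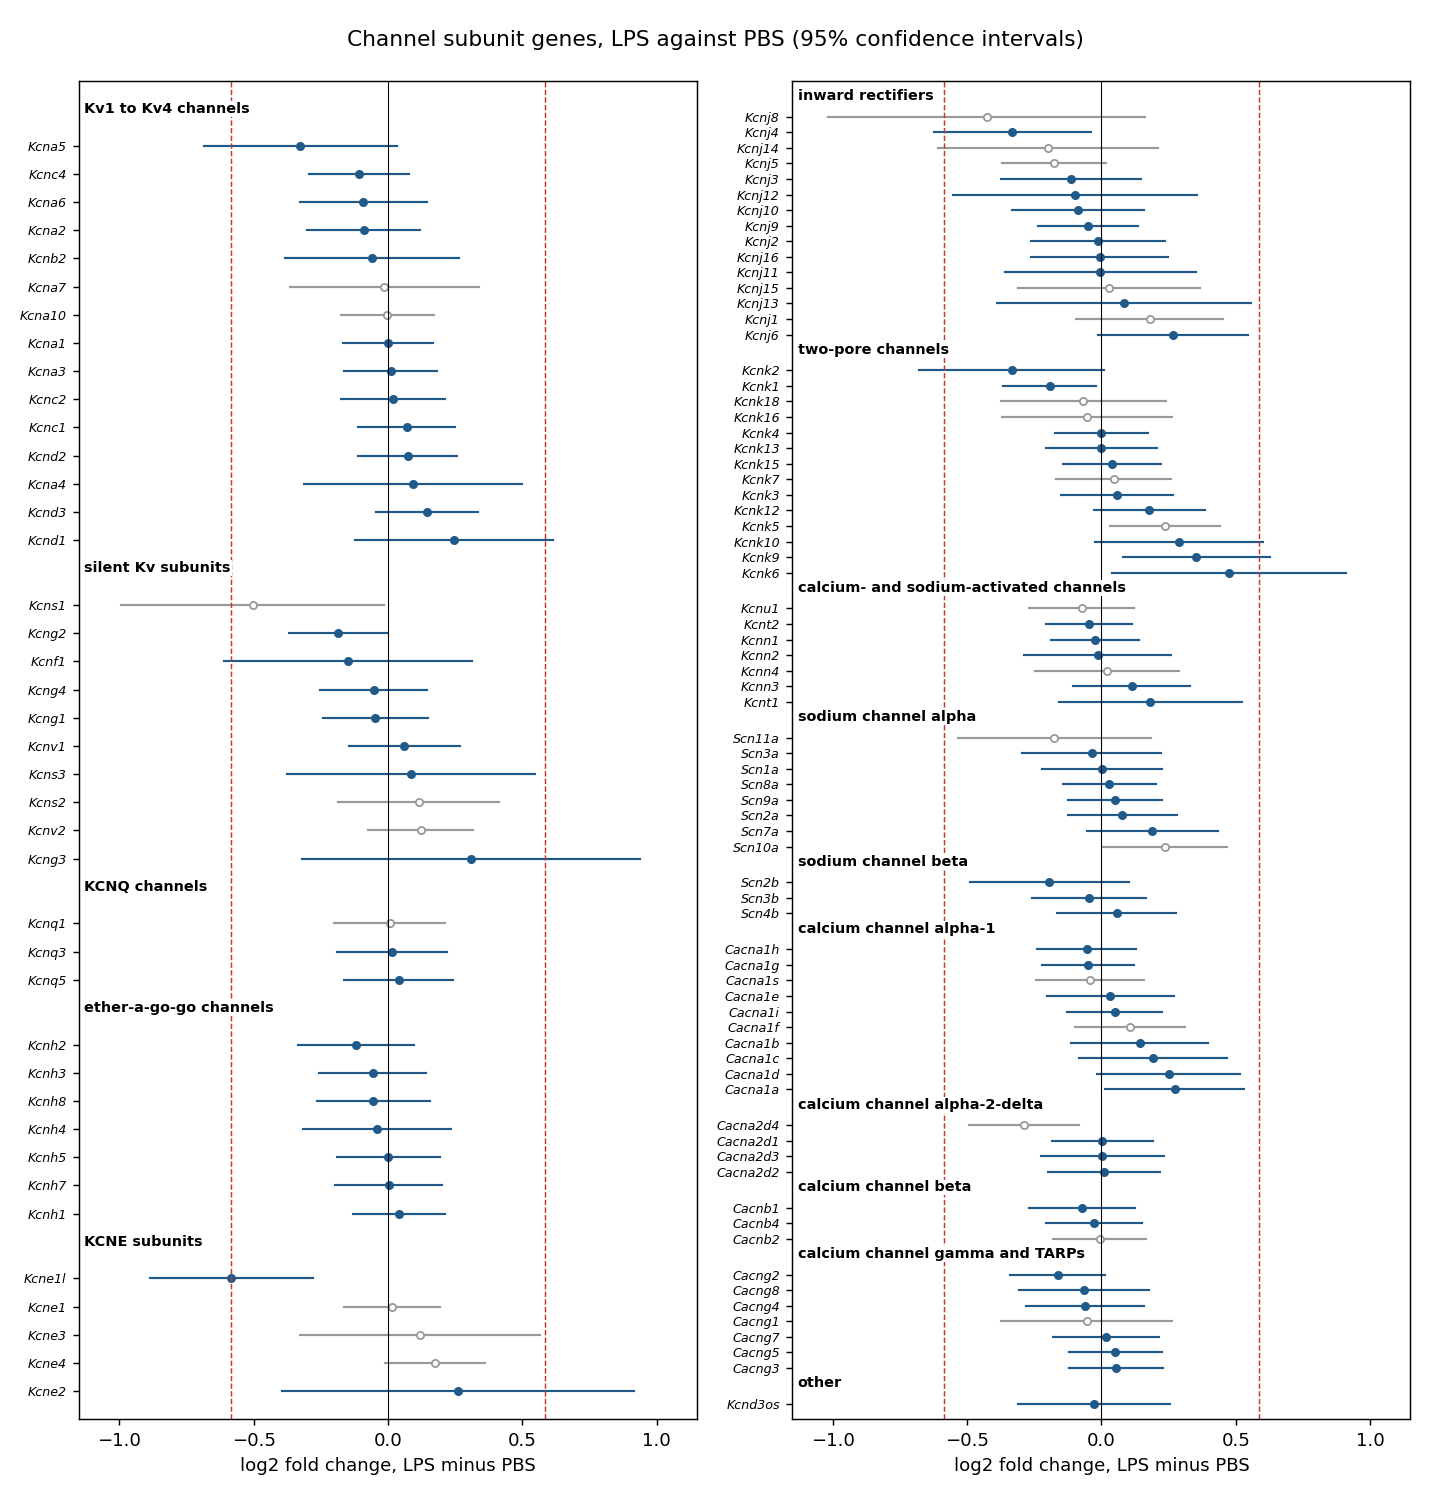
The log2 fold change (LPS minus PBS, x axis) of each of the 112 members, grouped by channel family, with a point for the estimate, a bar for its 95% confidence interval (limma, 3 against 3 arrays), open grey symbols for the 27 genes not above the background level and dashed lines at a 1.5-fold change. The estimates lie between -0.58 and 0.48, and the bars of 98 genes stay between the dashed lines.

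Among the voltage-gated potassium channels of the Kv1 to Kv4 groups, which repolarise axons and dendrites, 0 of 15 genes reached an unadjusted p under 0.05 (limma), the family's median log2 fold change was 0.00, and 13 intervals lay within 1.5-fold. Kcna1, the Kv1.1 subunit of axons, measured 10.57, 10.54 and 10.58 on the log2 scale in PBS and 10.57, 10.61 and 10.51 in LPS. The groups overlapped, with a log2 fold change of 0.00 and a 95% interval from -0.17 to 0.17. Kcna2, its common partner in axons, had a log2 fold change of -0.09, and a second cluster of the gene gave -0.15. Kcnc1, the Kv3.1 subunit of fast-spiking neurons, was at 0.07 (interval -0.11 to 0.25), and Kcnd2, the Kv4.2 subunit of the dendritic A-type current, was also at 0.07 (-0.11 to 0.26). Kcnd3, the Kv4.3 subunit of the same current, was the member of the group with separate arrays: it measured 9.74, 9.70 and 9.75 in PBS and 9.88, 9.78 and 9.97 in LPS. All 3 LPS arrays were above the PBS arrays by small steps, with a log2 fold change of 0.14 and an adjusted p of 0.443 (limma). Its antisense transcript Kcnd3os was at -0.03. Kcna5, the Kv1.5 subunit, measured 6.73, 6.91 and 7.10 in PBS and 6.70, 6.76 and 6.30 in LPS. LPS replicate 3 was the lowest array, LPS replicate 1 lay just under the PBS arrays and LPS replicate 2 among them, with a log2 fold change of -0.33 and an adjusted p of 0.383 (limma).

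The short stretches of promoter below are shown because they are the places where channel promoters carry the core of the interferon-stimulated response element, a motif of inflammatory gene control. RefSeq windows of 300 bases (250 before the start of transcription and 50 after, mouse assembly GRCm38.p6) were found for 84 of the members, 110 windows in all. The letters GAAA, any 2 bases and again GAAA were searched on both strands. They occurred in 5 windows (4.55%) of 4 genes, Kcna7, Kcnc2, Kcnd2 and Kcnj16, against 3.44% of 32851 windows of all genes. The capitals mark the match, which reads as its reverse complement in Kcnj16. The stretches lie at chr7:45405912-45405959, chr10:112270871-112270916 and chr11:111023610-111023664, all on the plus strand.
Kcna7: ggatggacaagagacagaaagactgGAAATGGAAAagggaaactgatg
Kcnc2: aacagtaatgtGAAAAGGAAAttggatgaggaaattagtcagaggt
Kcnj16: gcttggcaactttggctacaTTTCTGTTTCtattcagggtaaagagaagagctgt
In Kcnd2 the match lay within the 50 bases after the start. The log2 fold changes of these 4 genes were -0.01 for Kcna7, which was not above background, 0.02 for Kcnc2, 0.07 for Kcnd2 and -0.01 for Kcnj16. The letters TATAAA occurred in 5.45% of the members' windows against 13.6% of all, and GGGCGG (a GC box) in 45.5% against 35.7%. A match is a description of letters, and the absence of one says only that those letters are not in the window.

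The silent Kv subunits form no channel alone but modify the channels they join. Of 10, 2 (20%) reached an unadjusted p under 0.05 (limma), both lower, beside 14.3% of all clusters at that limit. The median log2 fold change was 0.01. Kcns1, a modifier of Kv2 channels, measured 6.34, 6.77 and 6.67 in PBS and 5.91, 5.83 and 6.52 in LPS. LPS replicates 1 and 2 were below every PBS array and LPS replicate 3 lay between them, with a log2 fold change of -0.50 (interval -0.99 to -0.02) and an adjusted p of 0.338 (limma), and the gene was not above background. Kcng2 measured 7.79, 7.90 and 7.79 in PBS and 7.57, 7.66 and 7.69 in LPS. Each LPS array was below each PBS array, with a log2 fold change of -0.19 and an adjusted p of 0.343 (limma). Kcnv2, another silent subunit, was separate in the other direction at 0.12 and was not above background. Kcng3 and Kcnf1 had wide intervals, from -0.32 to 0.94 and from -0.61 to 0.31.

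The KCNQ and ether-a-go-go potassium channels varied little. Kcnq3 and Kcnq5, which carry the M-current that restrains repetitive firing, were at log2 fold changes of 0.01 and 0.04, and Kcnq1, known from heart and epithelia and not above background here, was at 0.01. Kcnq3 measured 10.65, 10.45 and 10.59 in PBS and 10.50, 10.60 and 10.64 in LPS, and the groups overlapped throughout. The 7 Kcnh genes lay between -0.12 and 0.04, all 7 intervals within 1.5-fold and 0 genes at an unadjusted p under 0.05 (limma). Kcnh2, the channel known as hERG, had the lowest value of the family, -0.12, and Kcnh3, a forebrain member, was at -0.06.

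The KCNE genes encode small auxiliary subunits with a single membrane span, and held the smallest p of the channel genes. Kcne1l, also known as Kcne5, measured 7.91, 7.86 and 7.69 in PBS and 7.12, 7.09 and 7.48 in LPS. All 3 LPS arrays were below the PBS arrays, with LPS replicates 1 and 2 farthest below. The log2 fold change was -0.58 ± 0.13 (SE, interval -0.89 to -0.28), the largest in size among the members, with an adjusted p of 0.138 (limma). Kcne4 measured 5.57, 5.52 and 5.50 in PBS and 5.66, 5.65 and 5.81 in LPS, and so was separate at a log2 fold change of 0.18, but it was not above background. Kcne2, which is abundant in choroid plexus, measured 7.51, 6.68 and 6.98 in PBS and 7.56, 7.58 and 6.81 in LPS. The groups overlapped and spread by more than the difference between their means, 0.26. The 5 choroid plexus markers, all above background, had median deviations from their PBS means of -0.34 and -0.50 on LPS replicates 1 and 2, 0.18 on LPS replicate 3 and -0.14 to 0.19 on the PBS arrays, and their part in the result was not tested.

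Inward rectifiers pass potassium more readily into the cell than out of it and are shared between neurons, glia and vessels. Of 15 genes, 1 (6.67%) had an unadjusted p under 0.05 (limma), with a lower mean in LPS, and 2 (13.3%) were separate, both lower. Of all clusters, 14.3% met that limit and 20% were separate. The family's median log2 fold change was -0.05. Kcnj4, the Kir2.3 subunit of forebrain neurons, measured 8.95, 8.89 and 9.13 in PBS and 8.67, 8.45 and 8.85 in LPS. All LPS arrays were below the PBS arrays, the nearest by a narrow margin, with a log2 fold change of -0.33 (interval -0.62 to -0.04) and an adjusted p of 0.311 (limma). Kcnj6, the GIRK2 subunit that G protein-coupled receptors open, measured 8.46, 8.42 and 8.41 in PBS and 8.79, 8.85 and 8.45 in LPS. LPS replicates 1 and 2 were above all PBS arrays, whereas LPS replicate 3 lay among them, and the log2 fold change of 0.27 had an adjusted p of 0.366 (limma). Its GIRK partners Kcnj3 and Kcnj9 were at -0.11 and -0.05, and Kcnj5, not above background, was separate at -0.18.

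Kcnj10, the Kir4.1 channel by which astrocytes take up potassium, measured 10.78, 10.68 and 10.85 in PBS and 10.75, 10.50 and 10.80 in LPS. The groups overlapped and the log2 fold change was -0.09 (interval -0.33 to 0.16). Its partner Kcnj16 (Kir5.1) measured 10.20, 10.34 and 10.24 in PBS and 10.18, 10.13 and 10.46 in LPS, a log2 fold change of -0.01. Kcnj2, a Kir2.1 channel of endothelium and neurons, was at -0.01 with overlapping groups, and Kcnj13, the Kir7.1 channel of choroid plexus, was at 0.08 (interval -0.39 to 0.55). The 6 astrocyte markers had a median log2 fold change of 0.10, with 0 called (limma), 1 at an unadjusted p under 0.05 and 0 by the methods' t-test after adjustment.

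Kcnj8 and Abcc9 encode the pore (Kir6.1) and the sulphonylurea receptor SUR2 of the ATP-sensitive channel of pericytes and smooth muscle, and are neighbouring genes in GRCm38.p6. Kcnj8 measured 6.33, 6.28 and 5.60 in PBS and 5.45, 6.06 and 5.43 in LPS. The groups overlapped, the gene was not above background, and the log2 fold change of -0.43 had the widest reach below 0 of any member (interval -1.02 to 0.16, adjusted p = 0.466, limma). Abcc9 measured 6.84, 6.84 and 6.99 in PBS and 7.15, 7.46 and 7.48 in LPS. All its LPS arrays were above the PBS arrays, with a log2 fold change of 0.48 ± 0.11 (SE) and an adjusted p of 0.161 (limma). Pericyte and smooth muscle markers had a median log2 fold change of 0.35, with 0 of 6 called (limma), 5 of 6 higher at an unadjusted p under 0.05 and median deviations from the PBS means of 0.23 to 0.42 on the LPS arrays and -0.08 to 0.06 on the PBS arrays, and all 6 were above background. Their part in the value of Abcc9 was not tested.

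The two-pore channels, which carry background potassium current, held 4 of the 11 members at an unadjusted p under 0.05 (limma), 3 higher and 1 lower among 14 genes, all 4 with separate groups. These 4 of 14 genes are 28.6% by either measure, beside 14.3% and 20% of all clusters, and a count over so few genes is given as a description. Kcnk9, the acid-sensitive TASK-3 channel, measured 9.68, 9.65 and 9.52 in PBS and 9.98, 10.16 and 9.77 in LPS. Each LPS array was above each PBS array and LPS replicate 3 was nearest to them, with a log2 fold change of 0.35 (interval 0.08 to 0.63) and an adjusted p of 0.270 (limma). Kcnk6, the TWIK-2 channel known for potassium efflux from macrophages, measured 7.66, 7.79 and 7.63 in PBS and 7.98, 7.92 and 8.60 in LPS. Its groups were separate, and LPS replicate 3 was far above the other 2 LPS arrays. The log2 fold change was 0.48 ± 0.18 (SE, interval 0.04 to 0.91), with an adjusted p of 0.320 (limma). Microglial and macrophage markers had median deviations from the PBS means of 0.22, 0.20 and 0.48 on LPS replicates 1, 2 and 3 and of -0.08 to 0.08 on the PBS arrays, with 6 of 7 above background, and their part in the value of Kcnk6 was not tested. Kcnk13, the THIK-1 channel by which microglia hold their resting potential, measured 7.33, 7.37 and 7.48 in PBS and 7.51, 7.31 and 7.36 in LPS. The groups overlapped, with a log2 fold change of 0.00 (interval -0.21 to 0.21).

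Kcnk1, the TWIK-1 channel, measured 11.11, 11.07 and 11.10 in PBS and 10.91, 10.83 and 10.96 in LPS. The PBS arrays lay close together and all LPS arrays below them, with a log2 fold change of -0.19 (interval -0.37 to -0.02) and an adjusted p of 0.315 (limma). Kcnk2 and Kcnk10 encode the stretch- and lipid-sensitive channels TREK-1 and TREK-2, and had log2 fold changes of -0.33 and 0.29. Kcnk2 measured 8.75, 8.70 and 8.94 in PBS and 8.31, 8.31 and 8.76 in LPS, and Kcnk10 measured 8.88, 8.52 and 8.92 in PBS and 9.10, 9.18 and 8.92 in LPS. In both genes LPS replicates 1 and 2 were outside the PBS range and LPS replicate 3 was inside it or at its edge. Kcnk5, the TASK-2 channel of epithelia, was separate at 0.24 and was not above background.

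**Figure D2:**
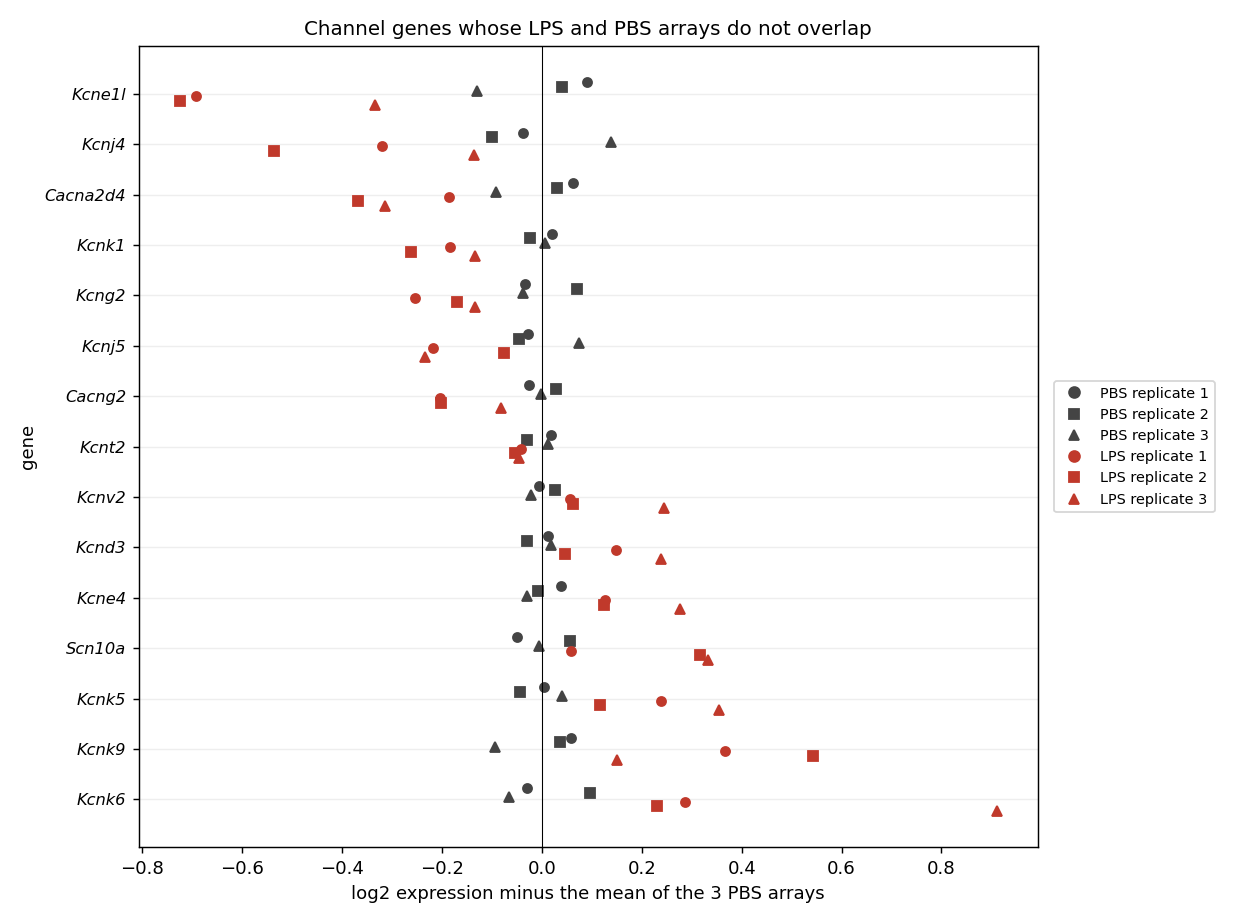
The value of each array minus the mean of the 3 PBS arrays (x axis, log2 scale) for the 15 members with no overlap between groups, PBS in grey and LPS in red, with a symbol for each replicate number. The 8 genes at the top have all LPS arrays below the PBS arrays and the 7 at the bottom above them, and the largest steps are those of Kcne1l (-0.58 on average) and Kcnk6 (0.48).

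The potassium channels opened by calcium or sodium and their relatives (7 genes of the Kcnn, Kcnt and Kcnu series) had 0 members at an unadjusted p under 0.05 (limma), a range of -0.07 to 0.18 and all intervals within 1.5-fold. Kcnt1, the sodium-activated Slack channel, measured 9.73, 9.62 and 9.70 in PBS and 9.97, 10.09 and 9.55 in LPS. LPS replicates 1 and 2 were above and LPS replicate 3 below every PBS array, so that the log2 fold change of 0.18 averages opposite deviations. Kcnt2 was separate by a very small step, at -0.05, and Kcnn3, the SK3 channel of the afterhyperpolarisation, was at 0.11. Kcnn4 and Kcna3, known from immune cells and activated microglia, were at 0.02 and 0.01. Kcnn4 was not above background, and Kcna3 measured 8.82, 8.91 and 8.87 in PBS and 8.88, 8.83 and 8.92 in LPS.

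The list of 10 channels known from cells other than neurons (Kcnj8, Kcnj10, Kcnj16, Kcnj2, Kcnj13, Kcne2, Kcnk13, Kcnk6, Kcna3 and Kcnn4) had 0 genes called (limma) and a median log2 fold change of 0.00. Of these, Kcnj2 is also a channel of neurons. Kcnk6 was the 1 gene at an unadjusted p under 0.05 (limma) and the 1 with separate groups. The range of the list, -0.43 to 0.48, was wide, and 7 of 10 intervals lay within 1.5-fold. The list of well-studied neuronal channels (13 genes analysed) also had 0 genes called (limma) and 1 at an unadjusted p under 0.05, Cacna1a. In that list 1 gene had separate groups, Cacng2, lower in its brightest cluster. The values of the list ranged from -0.16 to 0.27, with all 13 intervals within 1.5-fold. Of all clusters, 14.3% met the unadjusted limit and 20% had separate groups.

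Sodium channel alpha subunits start and carry the action potential. Of 8, 1 (12.5%) had an unadjusted p under 0.05 (limma), with a higher mean in LPS, beside 14.3% of all clusters. All 8 intervals lay within 1.5-fold. Scn1a, the main sodium channel of inhibitory interneurons, measured 10.67, 10.63 and 10.67 in PBS and 10.62, 10.82 and 10.53 in LPS, a log2 fold change of 0.00 (interval -0.22 to 0.22). The LPS arrays lay on both sides of the PBS arrays. Scn8a, the Nav1.6 channel of the axon initial segment and nodes, was at 0.03 (interval -0.14 to 0.20). Scn7a, the sodium sensor Nax, measured 7.80, 7.85 and 7.59 in PBS and 8.01, 7.81 and 7.99 in LPS, and the log2 fold change of 0.19 had an adjusted p of 0.434 (limma) with overlapping groups. Scn10a, the Nav1.8 channel of sensory neurons, was the 1 gene at an unadjusted p under 0.05, at 0.24 with separate groups (adjusted p = 0.345, limma), but its levels of 4.88 to 5.26 were under the background level on every array. The auxiliary beta subunits Scn2b, Scn3b and Scn4b, which tie the alpha subunits to adhesion and gating, were at -0.19, -0.05 and 0.06.

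Scn2a, the Nav1.2 channel of excitatory neurons, was covered by 14 clusters that name it alone, and the brightest measured 13.88, 13.96 and 13.73 in PBS and 13.90, 13.95 and 13.95 in LPS. That cluster had a log2 fold change of 0.08 with overlapping groups. The 14 clusters did not agree in sign: 7 were positive and 7 negative, between -0.23 and 0.24. Separate groups were seen in 5 (2 above, 3 below), and 3 had an unadjusted p under 0.05 (limma, 1 higher, 2 lower). Of all clusters, 20% were separate and 14.3% met that limit. Of the 14, 0 were called, with a smallest adjusted p of 0.291 (limma). The choice of cluster thus fixes the sign of the value for this gene. Cacng2 likewise had a cluster at -0.16 and another at 0.15, both with separate groups. The 3 clusters shared between sodium channel genes, which could not be given to one gene, were at -0.11, -0.08 and -0.02.

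**Figure D3:**
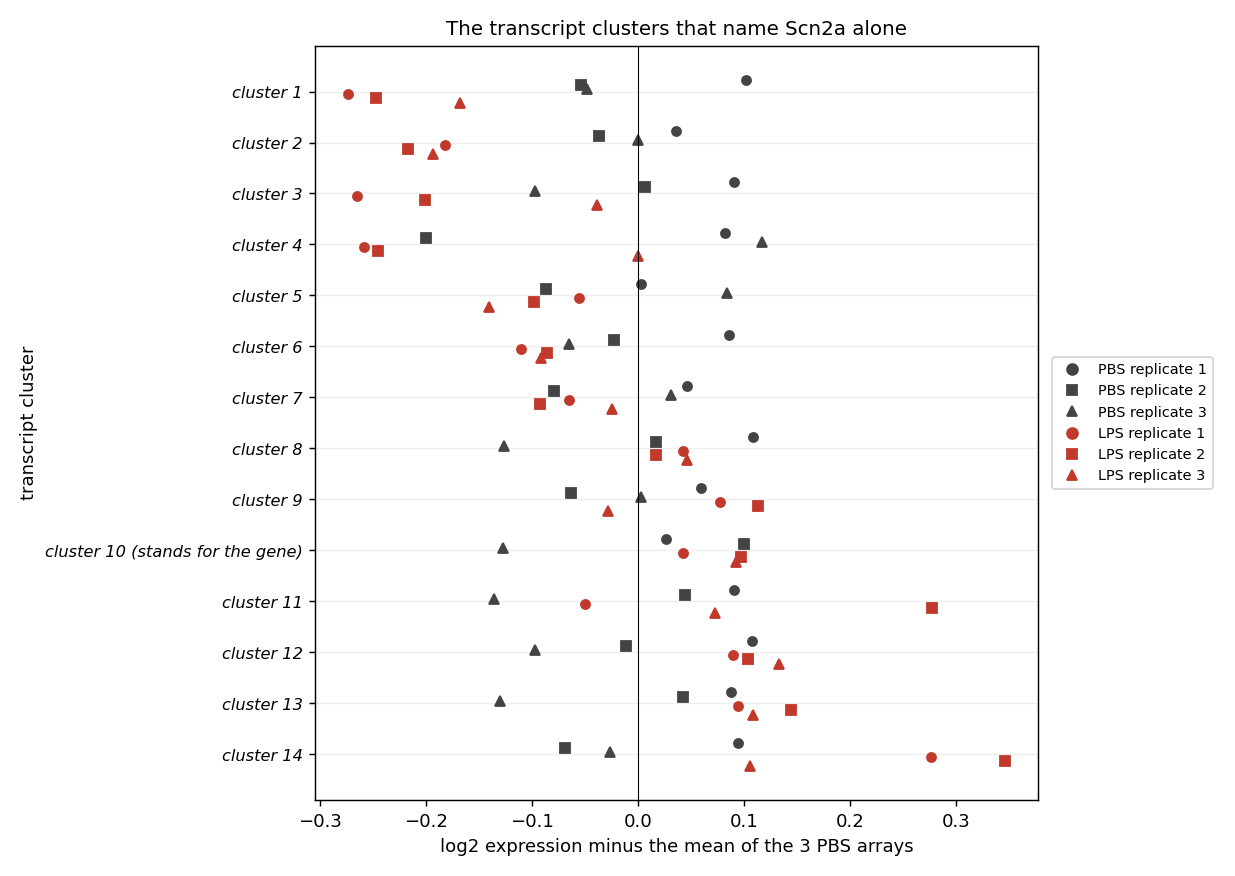
The value of each array minus the mean of the 3 PBS arrays (x axis, log2 scale) for the 14 clusters that name Scn2a alone, ordered by log2 fold change, PBS in grey and LPS in red. The difference runs from -0.23 to 0.24 between clusters of one gene, and the cluster that stands for it lies at 0.08.

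Calcium channel alpha1 subunits form the pore and fix the current type. Of 10 genes, 1 (10%) had an unadjusted p under 0.05 (limma), with a higher mean in LPS, beside 14.3% of all clusters. In this family 0 had separate groups, and the median log2 fold change was 0.08. Cacna1a, the P/Q-type channel of presynaptic terminals, measured 10.88, 10.73 and 10.79 in PBS and 11.15, 11.21 and 10.87 in LPS. LPS replicates 1 and 2 were above all PBS arrays and LPS replicate 3 was within their range, with a log2 fold change of 0.27 (interval 0.01 to 0.53) and an adjusted p of 0.332 (limma). The L-type gene Cacna1d showed the same order, with 8.85, 8.65 and 8.71 in PBS and 9.01, 9.15 and 8.80 in LPS, and so did the N-type gene Cacna1b (log2 fold change 0.14) and the L-type gene Cacna1c (0.19), in each of which LPS replicates 1 and 2 were above every PBS array and LPS replicate 3 was not. Cacna1e, the R-type channel, was at 0.03, and the T-type channels Cacna1g, Cacna1h and Cacna1i were at -0.05, -0.06 and 0.05.

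Most of the auxiliary calcium channel subunits varied little. Cacna2d1 and Cacna2d2, the alpha2delta subunits that bind gabapentin, were at log2 fold changes of 0.00 and 0.01, and Cacna2d3 was at 0.00. A second cluster of Cacna2d1 gave -0.11, with overlapping groups. Cacna2d4, known from retina, measured 6.47, 6.44 and 6.32 in PBS and 6.22, 6.04 and 6.10 in LPS. Its groups were separate, with a log2 fold change of -0.29, an unadjusted p of 0.0125 (limma) and an adjusted p of 0.244 (limma). The gene was not above background. The cytoplasmic beta subunits Cacnb1 and Cacnb4 were at -0.07 and -0.03. Among the 7 gamma subunits, most of which are partners of AMPA receptors (TARPs), Cacng2, known as stargazin, measured 11.36, 11.41 and 11.38 in PBS and 11.18, 11.18 and 11.30 in LPS in its brightest cluster. All LPS arrays of that cluster were below the PBS arrays, with an adjusted p of 0.379 (limma), and Cacng3, another such partner, was at 0.05.

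Genes that act with these channels but fall outside the naming rule were read from a list of 32, of which 31 were measured. Of them 0 were called (limma) and 0 by the methods' t-test, 3 were higher and 1 lower at an unadjusted p under 0.05 (limma), 6 were separate above and 2 below, and the median log2 fold change was 0.02. The shares of 12.9% at that limit and 25.8% with separate groups stand beside 14.3% and 20% of all clusters. Besides Abcc9, the higher ones were Kcnmb1, the beta subunit of the large-conductance potassium channel in smooth muscle (0.37, adjusted p = 0.265, limma), which was not above background, and Kcnip2, a calcium-binding partner of Kv4 channels (0.21, adjusted p = 0.312, limma). The lower one was Fgf12, an intracellular modulator of sodium channels, which measured 10.98, 10.84 and 11.17 in PBS and 10.72, 10.51 and 10.79 in LPS (-0.32, adjusted p = 0.300, limma). These 4 genes had separate groups.

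The channel genes were read again without LPS replicate 3, which lay with the PBS arrays on the first principal component. Endothelial markers had median deviations from their PBS means of 0.92, 0.92 and 1.09 on LPS replicates 1, 2 and 3, so that this array carried their rise too. Those of the choroid plexus markers were -0.34, -0.50 and 0.18. Without LPS replicate 3, 6 members (5.36%) had an adjusted p under 0.05 (limma), where 10.7% of all clusters did. Higher were Cacna1a (log2 fold change 0.38, adjusted p = 0.0398, limma), Kcnj6 (0.39, 0.0294) and Kcnk9 (0.45, 0.0354), and lower were Kcne1l (-0.71, 0.0111), Kcnk2 (-0.49, 0.0321) and Kcns1 (-0.72, 0.0273). The share of members called was again under the background. With LPS replicates 1 and 2 left out instead, a comparison of 1 LPS array that assumes it varies as the PBS arrays do, 0 members were called (limma) and 9 (8.04%) had an unadjusted p under 0.05, beside 10.4% of all clusters, and the median log2 fold change was 0.02. The separation of LPS replicates 1 and 2 from LPS replicate 3 lies within the treated group, and what sets these arrays apart was not tested.

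**Figure D4:**
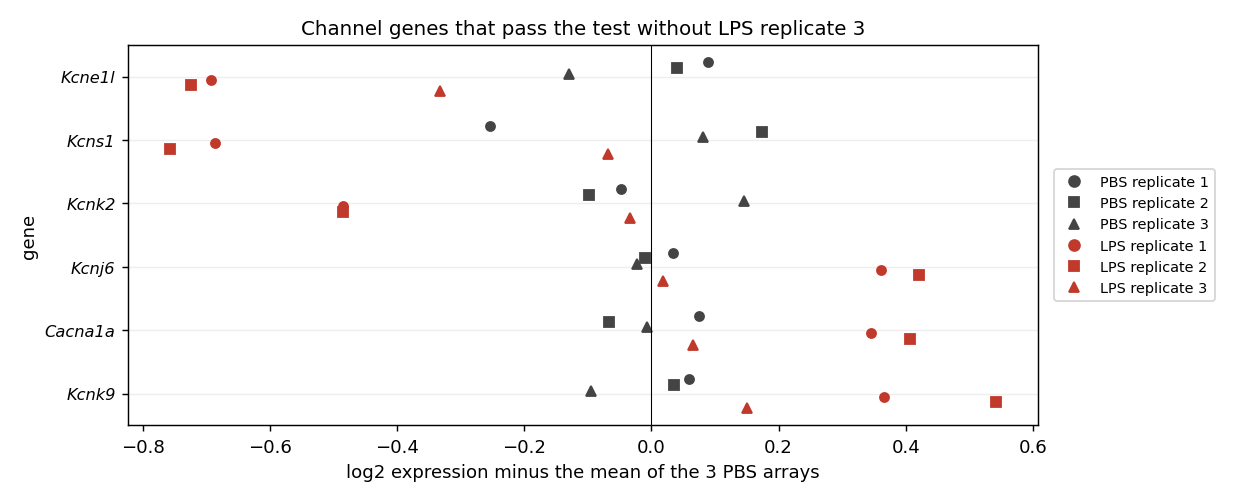
The value of each array minus the mean of the 3 PBS arrays (x axis, log2 scale) for the 6 members with an adjusted p under 0.05 once LPS replicate 3 is left out, PBS in grey and LPS in red. LPS replicates 1 and 2 lie together and away from the PBS arrays in each gene, and LPS replicate 3 (red triangles) lies nearer to 0. The genes were chosen by the fit without LPS replicate 3, and that choice favours this order.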

How the data were processed

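Each value was deposited by the authors on a log2 scale, as 1 value per transcript cluster and array, after robust multi-array averaging (RMA). The methods name 2 versions of RMA, and which one gave these values is not stated. Clusters were named through the 2016 platform annotation: of 35556, 21789 name 1 gene, 1621 several and 12146 none. Replicates are separate mice. No 2 arrays shared more than 4 identical values. The number of arrays limits the precision, and a permutation of 3 against 3 arrays cannot go below p = 0.1.

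LPS was compared with PBS in R 4.3.3 with limma 3.58.1 (lmFit, eBayes, no covariate, two-sided) over all clusters, with Benjamini-Hochberg adjustment over all of them and a threshold of 0.05. The scripts were tested on simulated data. Promoter windows came from RefSeq (GRCm38.p6). The methods' t-test, other settings of limma, other normalizations, filters, a replicate block and each array left out in turn were alternatives.

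The members, families and gene lists were chosen with earlier results of these data known. Genes named in the text were those past the threshold, the 2 smallest p-values of each family, and separate groups with at least a 1.5-fold change. Fixed lists of channels known from cells other than neurons and of neuronal channels were also named. Other channel genes (such as Kcnk1, Kcnk2, Kcnk10, Kcng3, Kcnf1, Kcnj5, Kcnv2, Kcnt2, Cacna1b) and the partner genes were named after their values were seen.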

Additional observations from a re-analysis of the deposited data

How the results depend on the processing

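The absence of called channel genes (limma, adjusted p under 0.05) held under the methods' t-test, a variance trend, a robust prior, quantile normalization, centring, a filter on the lowest 40%, an offset of 32, the mean of clusters, a threshold of 0.1 and the genes above background. It ended in 2 settings, array weights and the omission of single arrays. Array weights gave 17 members (8 higher, 9 lower, 15.2% beside 23.4% of all clusters) and 31 at an unadjusted p under 0.05 (27.7% beside 39.2%). With single arrays left out, calls ranged from 0 to 6. All 6 arose without LPS replicate 3 (5.36% beside 10.7% of all clusters) and were spread over 5 channel families. Members at an unadjusted p under 0.05 numbered 4 to 15 when single arrays were left out (3.57% to 13.4%, beside 9.27% to 27.4% of all clusters). There were 4 without PBS replicate 2, 5 without PBS replicate 1 or 3, 6 without LPS replicate 1 and 7 without LPS replicate 2. Without LPS replicate 3 there were 15. The members' share was under that of all clusters whichever array was left out. Members with separate groups numbered 20 to 39 with single arrays left out (17.9% to 34.8%, beside 26.8% to 45.9% of all clusters). There were 51 with LPS replicates 1 and 2 both left out (45.5% beside 58.3%). Among the 85 members above background 9 had separate groups, and the share of all clusters above background was not computed. With fewer arrays more genes separate, and the members' share was under that of all clusters in each setting with arrays left out. Centring moved the median log2 fold change to -0.0896, and leaving out LPS replicates 1 and 2 moved it to 0.0214. The replicate numbers did not pair the arrays (correlations of deviations of 0.09, -0.05 and 0.10). With the numbers as a replicate block, 0 members were called (limma) and 10 had an unadjusted p under 0.05 (8.93%, beside 14% of all clusters). Of 48 named members, 26 changed sign in at least 1 of 17 settings, and none of these had an unadjusted p under 0.05 with all 6 arrays. No called partner gene appeared in any setting run on them. Array weights, the variance trend, the robust prior, the filter and the replicate block were among the settings not run on the partner genes. The cause of these shifts was not tested. Levels near background limit the values of 27 members.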
